A study of Mus musculus with 18 samples.

Results

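Epididymal adipocytes of 14 month old mice were compared with epididymal adipocytes of 6 month old mice across all measured genes. The comparison took the 3 arrays labelled as peripheral adipocytes at 14 months and the 3 labelled so at 6 months, 6 of the 18 arrays of the series. The study's methods name the peripheral site as the epididymal fat pad. The labelled cell type and age chose the arrays, and no measured value did. The question put by the design was which transcripts of these fat cells differ between young adult and middle-aged mice.

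White adipocytes store triglyceride, release it as fatty acids by lipolysis when catecholamines act on them, and take up glucose under insulin through insulin receptor substrates and the transporter Slc2a4. They also secrete hormones such as leptin and adiponectin. The epididymal pad surrounds its fat cells with macrophages, fibroblast-like progenitors and vessels, and a sheet of mesothelium covers it. Immediate early genes such as Fos, Jun and Egr1 are transcribed within minutes of a growth factor, cytokine or stress signal, and many chemokine genes and the inhibitors that end NF-kB signalling are switched on by the same kinds of signal.

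All animals were male C57BL/6J mice on standard chow, without a drug, diet change or genetic alteration in either group. Each array carried RNA pooled from several animals, so an array gives the average of its pool. Bone marrow adipocytes of the same mice, and epididymal adipocytes of 18 month old mice, were on the other arrays used here. Fat cells were freed by collagenase, floated and washed, and were not sorted, so that cells bound to adipocytes or left in the float could add RNA. In bulk RNA of this kind, fewer cells of a type and less RNA per cell cannot be told apart.

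Values are log2 signals of 23410 probe sets (groups of array probes for 1 transcript) that name a gene, and levels of different genes are not comparable because each has its own probes. The arrays of an age lay closer to each other than to the other age: the root mean square log2 difference ran from 0.238 to 0.329 within an age and from 0.473 to 0.608 between ages. The adipocyte label held on all 6 arrays, with Adipoq (adiponectin) between 12.22 and 12.59, Lep (leptin) between 12.66 and 12.997 and Plin1, the coat protein of the lipid droplet, between 12.18 and 12.64. Replicate 1 of 6 months stood apart from the other arrays. It had a mean of 7.97 over 26 neutrophil genes, against 5.68 and 5.66 on the other 6-month arrays and 5.58 to 5.69 at 14 months, and Ngp, a neutrophil granule protein, read 10.76 there against 5.72 and 5.18. Its mean over 13 erythroid genes was 7.03 against 5.84 on both other arrays. S100a8, an abundant calcium-binding protein of neutrophils, read 9.71 there against 5.21 and 5.35. The part that RNA of blood or marrow cells had in this array was not tested, and results that changed without it are given both ways.

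At 14 months 2392 probe sets were called higher (10.2% of those tested) and 1758 lower (7.51%). Called means a Benjamini-Hochberg adjusted p under 0.05 in limma's moderated test over all arrays. The spread in this test and in each SE was pooled over all 18 arrays, marrow arrays included. The large changes were split unevenly. Among probe sets that also differed by 2-fold or more, 775 were higher (3.31%) and 300 lower (1.28%), yet the deepest single changes were falls: 9 genes fell by 16-fold or more and 1 gene, Jchain, rose as far. Rises made up 57.6% of all calls with the values as deposited, 33.9% when each array was centred on its median and 17.7% when it was centred on the ribosomal protein genes. These scalings moved the median change of all probe sets from -0.04 to -0.16 and -0.30, so small changes below are relative to the deposited scale. In 4049 probe sets (17.3%) all 14-month arrays were above all 6-month arrays, and in 4361 (18.6%) all were below.

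**Figure D1:**
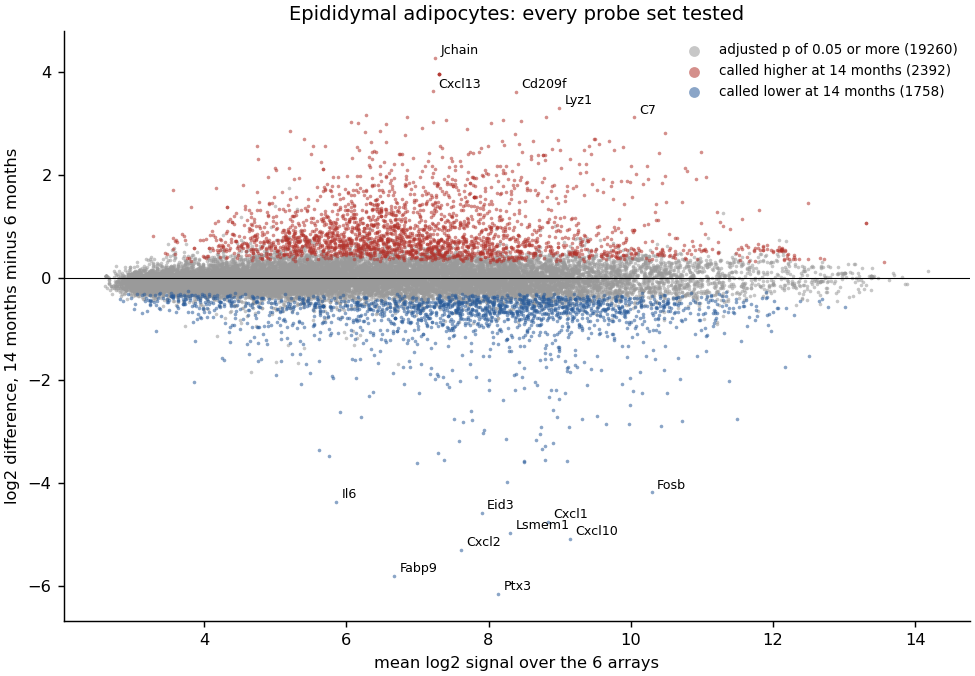
Each point is 1 of the 23410 probe sets, with its mean log2 signal over the 6 arrays on the x axis and its log2 difference, 14 months minus 6 months, on the y axis. The 2392 called higher are red, the 1758 called lower are blue, and the falls reach -6.15 (Ptx3) while the rises reach 4.27 (Jchain).

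Several secreted inflammatory mediators were among the genes with the largest falls. Ptx3, a soluble pattern recognition protein induced by inflammatory cytokines, read 11.07, 11.29 and 11.29 at 6 months and 5.03, 5.30 and 4.86 at 14 months. The groups were far apart, and Ptx3 fell by 6.15 ± 0.21 (SE) on the log2 scale, 71.2-fold (adjusted p = 7.26e-13, limma). The neutrophil attracting chemokine Cxcl2 read 10.42, 10.17 and 10.18 against 5.17, 4.69 and 5.00, and fell by 5.30 ± 0.23 (adjusted p = 1.94e-11). Its neighbour in the genome and in function, Cxcl1, read 11.13, 11.32 and 11.20 against 6.29, 6.44 and 6.65, and fell by 4.76 ± 0.16. Cxcl10, which attracts activated T cells and is induced by interferon, read 11.60, 11.72 and 11.74 against 6.93, 6.71 and 6.18, and fell by 5.08 ± 0.18. No array of either age came near the other age in these 4 genes, though the rule that named them required groups without overlap. The cytokine Il6 read 8.05, 8.11 and 7.95 against 3.56, 3.91 and 3.55, a fall of 4.36 ± 0.29 (20.5-fold; adjusted p = 5.52e-09).

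The CC chemokines, which mostly attract monocytes and lymphocytes, moved in both directions. Ccl3 read 10.38, 10.22 and 10.13 against 6.79, 6.06 and 5.97, and fell by 3.97 ± 0.18. Ccl2, the main monocyte attractant, read 10.37, 10.10 and 10.11 against 7.62, 7.20 and 7.03, and fell by 2.91 ± 0.24. Ccl4 and Ccl7 fell by 2.25 and 2.14, Cxcl9 by 1.93, Ptgs2 (the inducible prostaglandin synthase) by 1.91, Tnf by 1.24 and Il1b by 1.17. Ccl8, another monocyte attractant that is not on the list counted next, read 4.41, 4.94 and 4.29 against 7.66, 7.55 and 7.53, and rose by 3.03 ± 0.18. Ccl6 and Ccl9, named after their values were seen, rose by 1.89 and 1.07. Of 34 genes listed as inflammatory cytokines and chemokines, 18 were lower and 5 higher, where 7.51% and 10.2% of all probe sets were. The median change was -0.66 against -0.04 over all probe sets. Among the members that rose, Il33, an alarmin of stromal cells, rose by 1.77, the T cell chemokine Ccl5 by 1.38 and the endothelial adhesion molecule Vcam1 by 1.11. The related Icam1 read 7.72 to 7.93 at 6 months and 7.51 to 7.69 at 14 months, and did not pass the test (adjusted p = 0.207). With 6-month replicate 1, 6-month replicate 3 or 14-month replicate 3 left out, 3 listed genes were higher, and 18 or 19 were lower.

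The promoters of several of these genes hold the kappa B consensus, the sequence family that NF-kB dimers bind, and they are shown because several of the genes that fell deepest hold it. The 250 bases before the start of each gene are printed 5′ to 3′ from RefSeq (build GRCm38.p6), with every match to the consensus, on either strand, in capitals.
Cxcl2, chr5:90903649-90903898, plus strand: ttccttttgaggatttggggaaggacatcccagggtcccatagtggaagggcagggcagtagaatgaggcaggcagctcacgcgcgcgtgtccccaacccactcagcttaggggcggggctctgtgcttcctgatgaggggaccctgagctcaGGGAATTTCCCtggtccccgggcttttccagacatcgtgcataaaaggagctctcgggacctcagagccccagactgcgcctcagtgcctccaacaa
Cxcl1, chr5:90890995-90891244, plus strand: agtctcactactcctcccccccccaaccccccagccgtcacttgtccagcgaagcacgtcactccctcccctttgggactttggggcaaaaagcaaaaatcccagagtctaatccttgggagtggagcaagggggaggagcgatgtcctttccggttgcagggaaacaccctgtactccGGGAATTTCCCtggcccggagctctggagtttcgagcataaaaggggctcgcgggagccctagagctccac
Cxcl10, chr5:92348890-92349139, minus strand: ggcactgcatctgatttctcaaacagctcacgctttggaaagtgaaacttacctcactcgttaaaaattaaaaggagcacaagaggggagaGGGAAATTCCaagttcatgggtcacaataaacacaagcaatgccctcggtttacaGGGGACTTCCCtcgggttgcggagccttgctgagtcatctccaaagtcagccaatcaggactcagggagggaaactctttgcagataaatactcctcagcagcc
Il6, chr5:30012864-30013113, plus strand: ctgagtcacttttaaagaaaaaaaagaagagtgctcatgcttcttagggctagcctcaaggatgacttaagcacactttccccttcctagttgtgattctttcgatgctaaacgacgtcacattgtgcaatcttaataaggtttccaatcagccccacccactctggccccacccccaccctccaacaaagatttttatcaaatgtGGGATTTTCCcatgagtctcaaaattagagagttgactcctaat
Nfkbia, chr12:55492648-55492897, minus strand: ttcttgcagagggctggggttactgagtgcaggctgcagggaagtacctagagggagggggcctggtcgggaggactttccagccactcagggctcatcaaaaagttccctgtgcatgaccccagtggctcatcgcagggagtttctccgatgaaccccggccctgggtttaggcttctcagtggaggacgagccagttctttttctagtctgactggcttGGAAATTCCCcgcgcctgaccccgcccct
In Cxcl2 and Cxcl1 the run in capitals is the same and holds a match on each strand, and it begins 97 and 71 bases before the start. Cxcl10 has matches from 159 to 103 bases before its start, Il6 at 44 and Nfkbia at 29. None of them overlapped a match to the other motifs searched. Among 53 genes that fell by 4-fold or more and have a promoter in the table, 14 (26.4%) held the consensus in these 250 bases, as did 39 of 206 (18.9%) that fell by 2-fold or more, 55 of 478 (11.5%) that rose by 2-fold or more and 1481 of 15614 (9.49%) of all genes tested. Of all promoter windows listed, 7.25% held it. These are letter matches, not measured binding.

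Most feedback genes of NF-kB signalling were lower too. Of 23 genes listed as NF-kB subunits and feedback inhibitors, 16 were lower and 4 higher, where 7.51% and 10.2% of all probe sets were. The list's median was -0.80, and without 6-month replicate 2 or 14-month replicate 1 there were 2 higher. Nfkbia, the inhibitor that carries NF-kB back to the cytoplasm and whose promoter is printed above, read 11.16, 11.33 and 11.35 at 6 months and 9.01, 9.12 and 8.98 at 14 months, a fall of 2.24 ± 0.13 (adjusted p = 1.3e-09). The ubiquitin editing enzyme Tnfaip3 fell by 3.04 ± 0.17 and the nuclear inhibitor Nfkbiz by 3.33 ± 0.22, from 10.26, 10.49 and 10.50 to 7.13, 7.14 and 7.001. The subunits changed less: Rel fell by 1.43, Relb by 0.97, and Nfkb2 by 0.53 without passing the test. Of the 20 list members with a promoter in the table, 12 (60.0%) held the kappa B consensus, against 9.49% of all genes tested. The members were listed for their part in NF-kB signalling, so this share says nothing about the change with age.

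Most immediate early genes fell. Of 42 measured, 32 were lower and 2 higher, with a median of -1.86, where 7.51% of all probe sets were called lower. Fosb, a partner of Jun in the AP-1 transcription factor, read 12.44, 12.31 and 12.41 at 6 months and 6.68, 8.85 and 9.08 at 14 months. Replicate 1 of 14 months was the lowest by over 2 units, and the fall was 4.18 ± 0.60 (adjusted p = 4.91e-05). Fos showed the same order, 10.59, 10.63 and 10.47 against 6.50, 7.11 and 7.46, and fell by 3.54 ± 0.37. Egr1 read 10.78, 10.94 and 10.92 against 7.22, 8.59 and 8.74, and fell by 2.70 ± 0.42. Other members were even across the 14-month arrays. Myc, a driver of cell growth, read 10.17, 10.35 and 10.36 against 6.62, 6.79 and 6.74, and fell by 3.57 ± 0.13 (adjusted p = 2.16e-12). Ier2 fell by 3.59, Maff, a small partner of stress response factors, fell by 3.61 and Ier3 fell by 3.55. The nerve and growth factor response gene Egr2 fell by 3.28, and Socs3, which stops cytokine signalling, fell by 3.14. Atf3, a stress-induced repressor, fell by 2.85 and Jun fell by 2.84. Zfp36, which destroys cytokine mRNAs, read 12.07, 12.09 and 12.20 against 8.92, 9.28 and 9.78, a fall of 2.80 ± 0.21. Among the other members were Klf4 (8.36 to 8.95 against 7.99 to 8.44, adjusted p = 0.6), Egr3 (7.01 to 7.06 against 6.301 to 6.97, adjusted p = 0.213) and Ccn2, a matrix-linked growth factor, which rose by 1.90 ± 0.34.

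The CArG box, bound by serum response factor, is the classic element of immediate early promoters, and 2 members that hold it are shown in the same way, with the box in capitals. Egr2 has 5 promoters in the table, and the first that holds a box is printed.
Zfp36, chr7:28379229-28379478, minus strand: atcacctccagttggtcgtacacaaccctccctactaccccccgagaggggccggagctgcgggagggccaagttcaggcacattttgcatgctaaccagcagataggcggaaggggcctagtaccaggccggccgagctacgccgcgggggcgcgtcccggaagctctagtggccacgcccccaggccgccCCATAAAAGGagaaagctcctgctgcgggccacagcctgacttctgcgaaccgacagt
Egr2, chr10:67537316-67537565, plus strand: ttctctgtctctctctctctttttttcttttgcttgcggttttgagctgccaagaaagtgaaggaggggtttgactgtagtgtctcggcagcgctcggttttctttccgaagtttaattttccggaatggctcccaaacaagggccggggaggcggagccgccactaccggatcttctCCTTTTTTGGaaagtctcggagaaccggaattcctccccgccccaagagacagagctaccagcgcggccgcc
The box begins 58 bases before the start in Zfp36 and 72 in Egr2. Of 34 immediate early genes with a promoter, 4 (11.8%) held a CArG box, against 227 of 15614 genes (1.45%) and 1.47% of all windows, and 4 (11.8%) held the cyclic AMP element TGACGTCA, against 2.33% of genes and 1.55% of windows. The AP-1 element TGANTCA was in 1 of the 34 (2.94%) and in 7.12% of genes and 6.75% of windows. No match says only that these letters are not in the window.

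**Figure D2:**
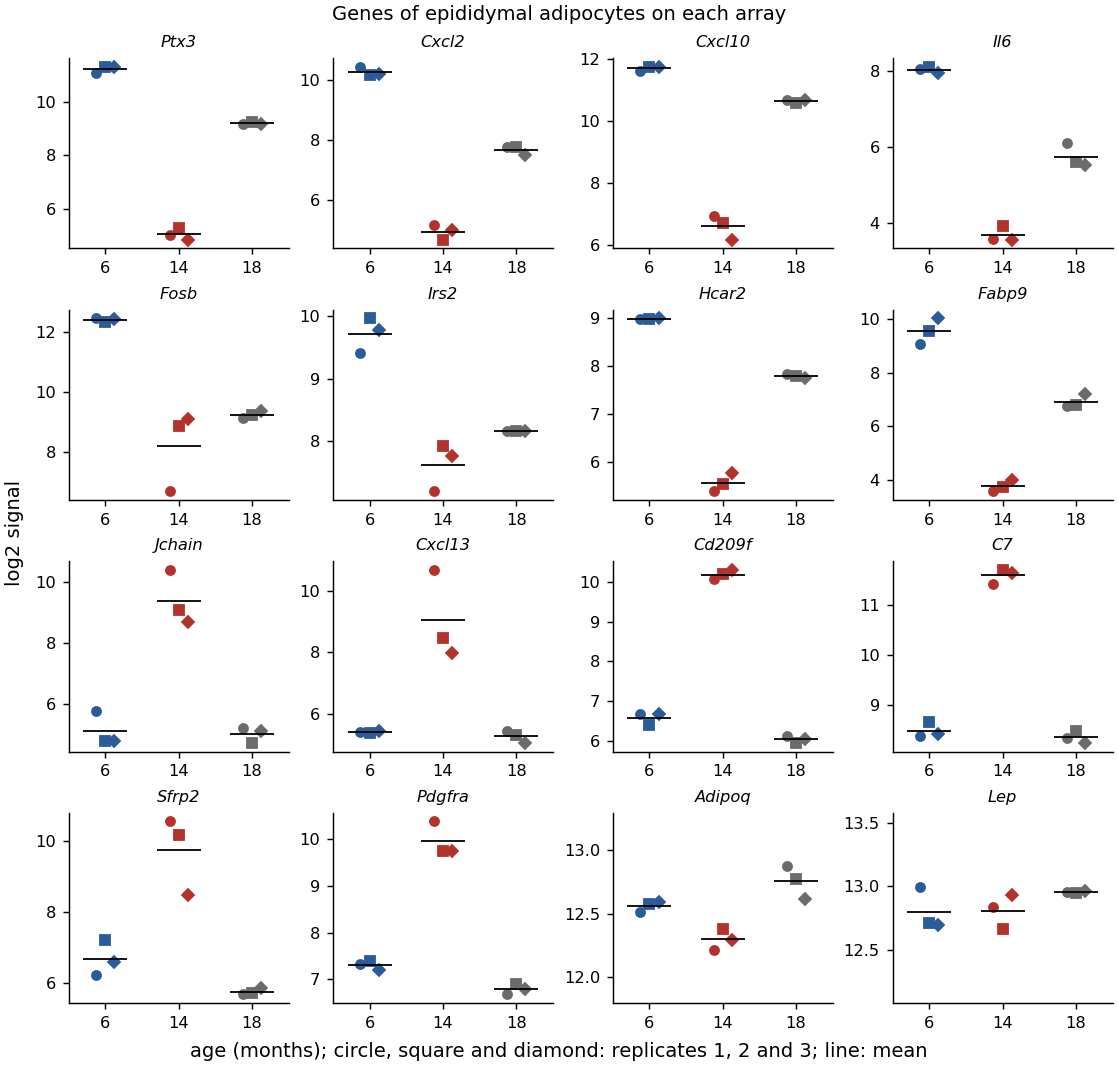
Log2 signal of 16 genes on each of the 9 epididymal arrays by age in months, with circle, square and diamond for replicates 1, 2 and 3 and a line at the mean of each age. In Ptx3, Cxcl2, Cxcl10, Il6, Hcar2 and Fabp9 the 14-month arrays lie below both other ages, in Jchain, Cxcl13, Cd209f, C7, Sfrp2 and Pdgfra they lie above both, and Lep overlaps between 6 and 14 months.

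Receptors and enzymes that set the rate of lipolysis changed unevenly. Hcar2, the receptor through which niacin and ketone bodies hold lipolysis down, read 8.98, 8.99 and 8.99 at 6 months and 5.40, 5.56 and 5.78 at 14 months. It fell by 3.41 ± 0.17 (10.6-fold; adjusted p = 1.65e-10). Hcar1, the lactate receptor with the same action, lies beside it and fell by 1.40 ± 0.20. The cyclic AMP phosphodiesterase Pde3b, through which insulin brakes lipolysis, fell by 0.98 ± 0.22, and Abhd5, the activator of triglyceride lipase, by 0.97 ± 0.15. The lipases themselves moved little. Pnpla2, which takes the first fatty acid off triglyceride, read 12.51, 12.68 and 12.64 against 11.97, 12.27 and 12.25, a fall of 0.45 that was lost without 14-month replicate 1 (-0.35, adjusted p = 0.0719). Lipe, the hormone-sensitive lipase, read 12.17 to 12.27 against 11.89 to 12.09 (adjusted p = 0.213). In all 7 of 15 listed genes were lower and 1 higher, with a median of -0.42, where 7.51% and 10.2% of all probe sets were.

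In the insulin list the substrate Irs2 led. It read 9.41, 9.97 and 9.79 at 6 months and 7.20, 7.92 and 7.76 at 14 months, and fell by 2.09 ± 0.17 (4.26-fold; adjusted p = 6.04e-08). The glucose transporter Slc2a1 fell by 1.27 ± 0.19 and hexokinase Hk2, the first step of glucose use, by 1.57 ± 0.26. Tbc1d4, which holds glucose transporters inside the cell until insulin acts, fell by 0.62 ± 0.12. The insulin-responsive transporter Slc2a4 did not pass the test: it read 10.32, 10.58 and 10.49 against 9.83, 10.17 and 10.48, with overlapping groups. Insr, the insulin receptor, was lower by 0.51 with all arrays and lost its call without 14-month replicate 1 (-0.40, adjusted p = 0.0947). A second probe set of Insr differed by -0.83 with all arrays (adjusted p = 2e-04, limma). Of 30 measured genes, 8 were lower (26.7%) and 3 higher (10%), where 7.51% and 10.2% of all probe sets were. Without 14-month replicate 1 the counts in the insulin list were 5 and 0, without 6-month replicate 2 they were 7 and 1, and without 6-month replicate 3 they were 7 and 0.

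Of 29 regulators of fat cell differentiation, 5 were lower (17.2%) and 3 higher (10.3%), where 7.51% and 10.2% of all probe sets were. Cebpd and Cebpb, which act early in the program, were among those lower. Cebpd read 7.92, 8.26 and 8.15 against 6.09, 6.22 and 6.43, a fall of 1.87 ± 0.20, and Cebpb read 8.64, 8.86 and 8.86 against 7.41, 7.63 and 7.43, a fall of 1.30 ± 0.24. Fgf10, a growth factor for progenitors, fell by 1.38 ± 0.20 and the commitment factor Zfp423 by 0.65 ± 0.11. Trib2, which opposes C/EBP proteins, rose by 0.83 ± 0.19. The master regulators of the mature cell did not pass the test, with Pparg at 10.04 to 10.43 against 10.24 to 10.56 and Cebpa at 10.75 to 11.03 against 10.40 to 10.61 (adjusted p = 0.593 and 0.117). Klf4, which acts early, did not pass either (adjusted p = 0.6), and Cebpa did when the 6 compared arrays were fitted alone.

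Mature adipocyte genes were slightly lower on all 14-month arrays, and most of them did not pass the test with the values as deposited. Over 27 genes the mean level was 11.75, 11.77 and 11.75 at 6 months and 11.33, 11.49 and 11.57 at 14 months. Of these genes 7 were lower and 1 higher, where 7.51% and 10.2% of all probe sets were. Without 14-month replicate 1, the array with the lowest mean, 2 were lower and 0 higher, with a median of -0.225 against -0.302. Leaving out any 6-month array or 14-month replicate 2 left 4 lower and 0 higher. Fitting the 9 epididymal arrays alone gave 13 lower and 1 higher, where 2486 of all 23410 probe sets were lower. With arrays centred on the ribosomal protein genes 15 were lower and 0 higher, where 5448 of all 23410 probe sets were lower. Adig, a small adipocyte membrane protein, fell by 0.85 ± 0.20 and Tmem120b by 0.70 ± 0.14. The defining genes did not pass the test: Adipoq differed by -0.26 ± 0.29, Plin1 by -0.42 ± 0.23, Fabp4 by -0.30 ± 0.23 and Retn by -0.45 ± 0.22. These SEs include the spread of the marrow arrays and are not the spread of the 6 compared arrays alone. Plin1 and Retn did pass when the 6 compared arrays were fitted alone. Lep read 12.997, 12.71 and 12.70 against 12.84, 12.66 and 12.93, with overlapping groups.

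Some genes of lipid metabolism and respiration were lower by small amounts. Of 27 genes of fatty acid and triglyceride synthesis, 11 were lower and 2 higher (median -0.345), of 24 genes of fatty acid oxidation 10 and 1 (median -0.33), and of 71 subunits of oxidative phosphorylation 12 and 0 (median -0.275), where 7.51% of all probe sets were called lower. As shares of their lists the genes called lower were 40.7%, 41.7% and 16.9%, and 59 of the 71 respiratory subunits did not pass. Without 14-month replicate 1 the genes called lower were 6, 5 and 4, where 1193 of all 23410 probe sets were lower in that refit. Synthesis genes numbered 7 lower without 6-month replicate 2, and oxidative phosphorylation 6 without 6-month replicate 1 and 7 without 14-month replicate 2. Other refits called more respiratory subunits lower: 19 with the 6 compared arrays alone, 28 with the 9 epididymal arrays and 24 with array weights. Respiratory subunits called lower numbered 27 with arrays centred on their median and 39 with arrays centred on the ribosomal protein genes. The acyltransferase Gpam read 10.98, 11.19 and 11.17 against 9.96, 10.44 and 10.46 and fell by 0.83 ± 0.17. Acetyl-CoA carboxylase Acaca, the first step of fatty acid synthesis, fell by 0.71 ± 0.15 and its mitochondrial form Acacb by 1.15 ± 0.21. Pdk4, which blocks the entry of glucose carbon into mitochondria, read 9.86, 10.18 and 10.16 against 7.75, 8.40 and 8.53, a fall of 1.84 ± 0.18 (adjusted p = 4.03e-07). The desaturase Fads2 went the other way, from 6.95, 6.92 and 6.77 to 8.34, 8.28 and 8.29, a rise of 1.43 ± 0.18. Cpt1a, which admits fatty acids to mitochondria, rose by 0.77 ± 0.14. Scd1, a highly expressed desaturase, differed by 0.01 ± 0.13, with overlapping groups.

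Stress-responsive genes of several kinds were lower, where 7.51% of all probe sets were called lower and 10.2% higher. Among 24 antioxidant enzymes 11 were lower and 1 higher (median -0.41): Srxn1, which repairs peroxiredoxins, read 9.18, 9.69 and 9.54 against 7.44, 7.28 and 7.13, a fall of 2.19 ± 0.15, Hmox1, which degrades haem, fell by 1.81 ± 0.18, and Txnrd1 and Gclc fell by 1.53 and 1.34. Nqo1 (4.71 to 5.39 against 5.15 to 5.19) and Cat (11.49 to 11.57 against 11.14 to 11.42) did not pass the test. Of 18 heat shock chaperones 8 were lower and 0 higher, among them Dnajb1, an Hsp70 partner, which fell by 2.09 ± 0.14, while the constitutive Hsp90aa1 overlapped between ages. Hypoxia and glycolysis genes numbered 8 lower and 1 higher of 23, with Adm, a vasodilator peptide, down by 1.70 ± 0.18, and the vessel growth factor Vegfa by 1.52 ± 0.17, and without 14-month replicate 2 there were 5 lower and 0 higher. Of 14 glucocorticoid and metal response genes 6 were lower and 0 higher, and the metal-binding metallothioneins Mt2 and Mt1 fell by 1.52 and 0.93.

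Of 18 circadian genes 8 were lower and 0 higher, where 7.51% and 10.2% of all probe sets were. Nfil3, a repressor in the clock's output, read 9.48, 9.37 and 9.42 at 6 months and 6.21, 6.51 and 6.50 at 14 months, a fall of 3.02 ± 0.14 (adjusted p = 6.08e-11). Nr1d1, the repressor that links the clock to metabolism, fell by 1.52 ± 0.13 and Cry2 by 0.92 ± 0.14. Arntl, the core activator, read 7.36 to 7.58 against 7.57 to 7.89, and Dbp, a strong output gene, 7.21 to 7.67 against 7.10 to 7.38, and neither passed the test. Without 14-month replicate 1 the list had 4 members lower. In the unfolded protein list 7 genes were lower and 6 higher of 29, so that it had no common direction: Ppp1r15a, which restarts translation after stress, fell by 2.06 ± 0.15, while the chaperone partner Sdf2l1 rose by 1.11 ± 0.14.

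**Figure D3:**
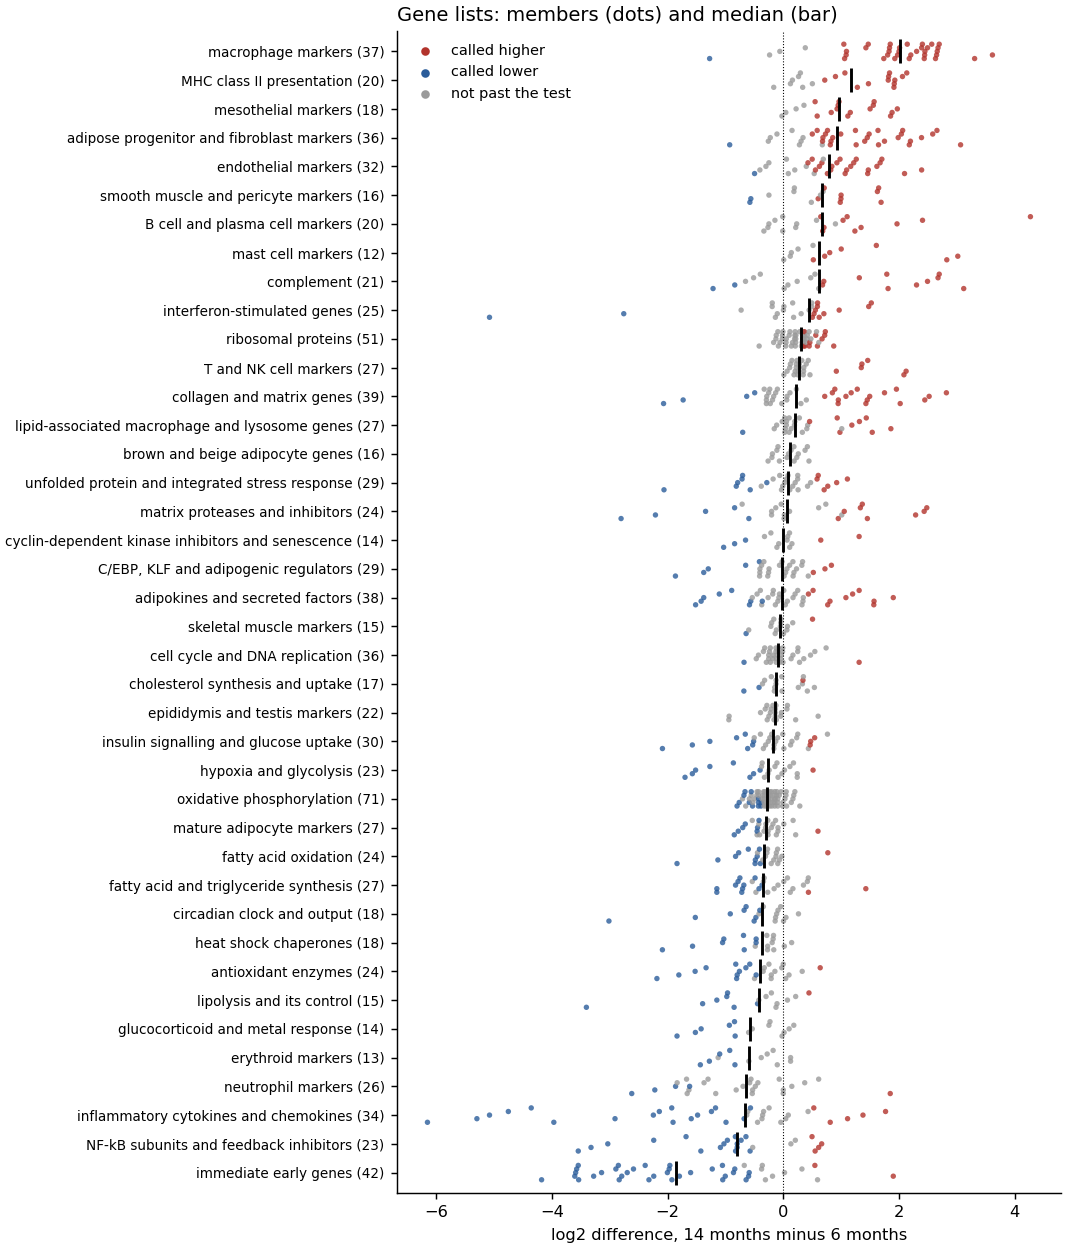
Each dot is a member of a gene list (number measured in brackets), placed by its log2 difference, 14 months minus 6 months, in red when called higher, blue when called lower and grey otherwise, with a black bar at the list's median. The lists run from macrophage markers (median 2.01) to immediate early genes (median -1.86).

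Macrophage transcripts rose in nearly the whole list. Of 37 measured markers, 33 were higher and 1 lower, with a median of 2.01, where 10.2% of all probe sets were called higher. The mean over the list was 7.21, 6.996 and 6.96 at 6 months and 9.20, 8.84 and 8.74 at 14 months, so the groups were apart and 14-month replicate 1 was highest. The pan-macrophage receptor Adgre1 read 7.38, 7.05 and 7.04 against 9.76, 9.21 and 9.03, a rise of 2.18 ± 0.22 (4.52-fold; adjusted p = 7.77e-07). Csf1r, the receptor for the macrophage growth factor, rose by 2.20 ± 0.19 and the lysosomal protein Cd68 by 2.40 ± 0.19. Markers found on macrophages resident in tissues were among those higher. Cd209f, a C-type lectin and 1 of the 15 largest rises, read 6.67, 6.39 and 6.66 against 10.07, 10.19 and 10.31, and rose by 3.62 ± 0.40, Folr2 by 2.66 ± 0.19, Mrc1 by 2.14 ± 0.24 and F13a1 by 2.65 ± 0.18. The exception in direction was Cd14, the lipopolysaccharide co-receptor, which read 7.49, 7.51 and 7.47 against 6.60, 6.12 and 5.92 and fell by 1.28 ± 0.22. Cx3cr1 and Mertk, the latter also a marker of resident macrophages, did not pass the test. Lyz1 rose by 3.31 ± 0.25 and Lyz2 by 2.44 ± 0.26, but these lysozyme genes are near copies of each other and probes may not tell them apart.

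Genes of lipid-loaded macrophages rose less evenly. Of 27 measured, 8 were higher and 1 lower, with a median of 0.20, where 10.2% and 7.51% of all probe sets were. Gpnmb, a membrane glycoprotein of lysosome-rich macrophages, read 7.66, 7.90 and 7.92 against 10.84, 9.34 and 8.88, a rise of 1.86 ± 0.34. Trem2, the lipid-sensing receptor, read 6.25, 6.44 and 6.43 against 7.80, 7.24 and 6.87, a rise of 0.93 ± 0.20. In both, 14-month replicate 1 stood above the other arrays. Itgax (CD11c) read 7.78 there against 6.62 and 6.304, and its rise of 1.18 was 0.74 without that array (adjusted p = 0.0652). Without it the list had 4 members higher and 1 lower, and without 6-month replicate 2 or 3 it had 5 higher and 0 lower. Lgals3 and Apoe overlapped between ages.

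Antigen presentation and complement rose with the macrophage markers. Of 20 genes of MHC class II presentation, 13 were higher and 0 lower (median 1.17), where 10.2% and 7.51% of all probe sets were. The class II chain H2-Ab1 read 9.75, 9.69 and 9.64 against 12.07, 11.83 and 11.58 and rose by 2.13 ± 0.17, and Cd74, the invariant chain, rose by 1.92 ± 0.13. Ciita, the master switch of class II genes, rose by 1.06 ± 0.15, while the co-stimulator Cd86 read 5.62 to 5.74 against 5.75 to 6.301 and did not pass the test (adjusted p = 0.393). Among 21 complement genes 10 were higher and 2 lower (median 0.61). The C1q chains, made by macrophages, rose together, C1qa by 2.49, C1qb by 2.67 and C1qc by 2.69. C7, a part of the membrane attack complex, read 8.37, 8.65 and 8.42 against 11.43, 11.71 and 11.66 and rose by 3.12 ± 0.14 (8.69-fold; adjusted p = 4.05e-11). Properdin, Cfp, rose by 2.30 ± 0.21 and the inhibitor Serping1 by 1.31 ± 0.19. Of the activation enzymes, C2 fell by 0.84 ± 0.16, and Cfb (11.80 to 11.86 against 11.26 to 11.52) and C4b (11.95 to 12.22 against 11.16 to 11.67) did not pass the test (adjusted p = 0.356 and 0.0556). The part that macrophage RNA had in the complement and class II results was not tested.

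Markers of lymphocytes and mast cells, and a chemokine that draws B cells, rose from low levels. Jchain, which joins the antibody chains of plasma cells, had the largest rise of all genes: it read 5.76, 4.78 and 4.79 against 10.40, 9.07 and 8.67, a rise of 4.27 ± 0.33 (19.3-fold; adjusted p = 2.61e-08). Cxcl13, the chemokine that draws B cells, read 5.40, 5.37 and 5.46 against 10.67, 8.46 and 7.97, a rise of 3.62 ± 0.49. In both genes 14-month replicate 1 was the highest array. Of 20 B cell and plasma cell markers 10 were higher and 0 lower, where 10.2% and 7.51% of all probe sets were. Among them were Ms4a1 (CD20), up by 2.41 ± 0.24, and Cd79a, up by 1.97 ± 0.26. In the T and NK list 6 of 27 were higher and 0 lower: the T cell receptor partner Cd3g rose by 2.12 ± 0.29 and Cd8a by 0.92 ± 0.17, whereas Cd3e read 6.11 to 6.36 against 6.39 to 6.78 (adjusted p = 0.263). Mast cell genes numbered 7 higher and 0 lower of 12, with the protease Cpa3 at 4.94, 4.51 and 4.51 against 7.85, 7.88 and 7.29, a rise of 3.02 ± 0.26, and Mcpt4, a mast cell chymase, up by 2.83 ± 0.20.

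Progenitor and fibroblast markers rose in most of their list. Of 36 measured, 27 were higher and 1 lower, with a median of 0.92, where 10.2% and 7.51% of all probe sets were. The mean of the list was 7.65, 7.63 and 7.57 at 6 months against 8.92, 8.73 and 8.58 at 14 months. Pdgfra, the receptor that marks adipose progenitors, read 7.32, 7.38 and 7.20 against 10.38, 9.74 and 9.74, a rise of 2.66 ± 0.25 (6.301-fold; adjusted p = 3.69e-07). Sfrp2, a secreted regulator of Wnt signalling, read 6.22, 7.20 and 6.60 against 10.55, 10.18 and 8.48 and rose by 3.06 ± 0.35, with replicate 3 of 14 months well below the others. Markers of the fibroblasts that lie around vessels and septa rose alike, Pi16 by 1.99 ± 0.17 and Dpp4 by 2.04 ± 0.15. The proteoglycans Dcn and Lum, which space collagen fibrils, rose by 1.45 and 2.06, and the microfibril protein Mfap5 by 2.58 ± 0.14. Col15a1, a collagen of basement membrane zones, went down, from 10.94, 10.88 and 10.72 to 9.94, 9.91 and 9.89, and Dpt did not pass the test (adjusted p = 0.078).

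Matrix genes were divided. Of 39 collagens and matrix proteins, 17 were higher and 4 lower, where 10.2% and 7.51% of all probe sets were. The list's median of 0.23 became -0.04 when arrays were centred on the ribosomal protein genes. Fibronectin, Fn1, read 9.30, 9.07 and 8.85 against 11.98, 11.85 and 11.85 and rose by 2.82 ± 0.19 (7.06-fold). Mgp, which keeps calcium out of soft tissue, rose by 2.52 ± 0.33, Col14a1 by 2.45 ± 0.19, Bgn by 2.02 ± 0.29 and Eln by 1.45 ± 0.14. The fibrillar collagen Col3a1 rose by 0.85 ± 0.14, and Col1a1 by 1.08 ± 0.33, a call that was lost without 14-month replicate 1 (0.93, adjusted p = 0.128), without either 6-month replicate 2 or 3 (1.05 and 1.02) and without 14-month replicate 3 (1.10). Col6a3 and Lox overlapped between ages. Thbs1 and Tnc, matricellular proteins of injury and remodelling, fell by 1.73 ± 0.23 and 2.07 ± 0.34. The proteases were divided in the same manner: gelatinase Mmp2 rose by 2.48 ± 0.17, its activator Mmp14 by 2.29 ± 0.19 and the inhibitor Timp2 by 2.43 ± 0.11, while the aggrecanase Adamts4 fell by 2.81 ± 0.18 and its relative Adamts1 fell by 2.21 ± 0.19.

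Vessel and surface markers rose too. Of 32 endothelial markers, 22 were higher and 1 lower (median 0.79), where 10.2% and 7.51% of all probe sets were. Vwf, the clotting factor carrier, read 6.74, 6.47 and 6.22 against 8.16, 9.23 and 8.31, a rise of 2.10 ± 0.34, Pecam1 rose by 0.93 ± 0.12 and Lyve1, a hyaluronan receptor of lymphatic vessels and of some macrophages, by 2.39 ± 0.13. Not all endothelial genes passed: Cdh5, the junction protein, read 9.06 to 9.24 against 9.59 to 9.74 (adjusted p = 0.162), Kdr had an adjusted p of 0.092 and Flt1 overlapped. Mesothelial markers rose: Upk3b, a membrane protein of the mesothelium, went from 8.19, 8.13 and 8.17 to 9.47, 9.66 and 10.03, a change of 1.56 ± 0.17, Krt19 rose by 1.97 ± 0.23, Msln by 0.96 ± 0.14 and Lrrn4 by 0.95 ± 0.19. Of that list 14 of 18 were higher and 0 lower. Replicate 1 of 14 months, the highest in the macrophage list, had the lowest mean here, 7.69 against 7.87 and 7.97, and the 6-month means were 6.83 to 6.86. Smooth muscle genes numbered 8 higher and 2 lower of 16, with Myh11 up by 1.69 ± 0.22 and Acta2 overlapping. The part that a different share of attached cells had in these results, or in those of the adipocyte lists, was not tested.

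**Figure D4:**
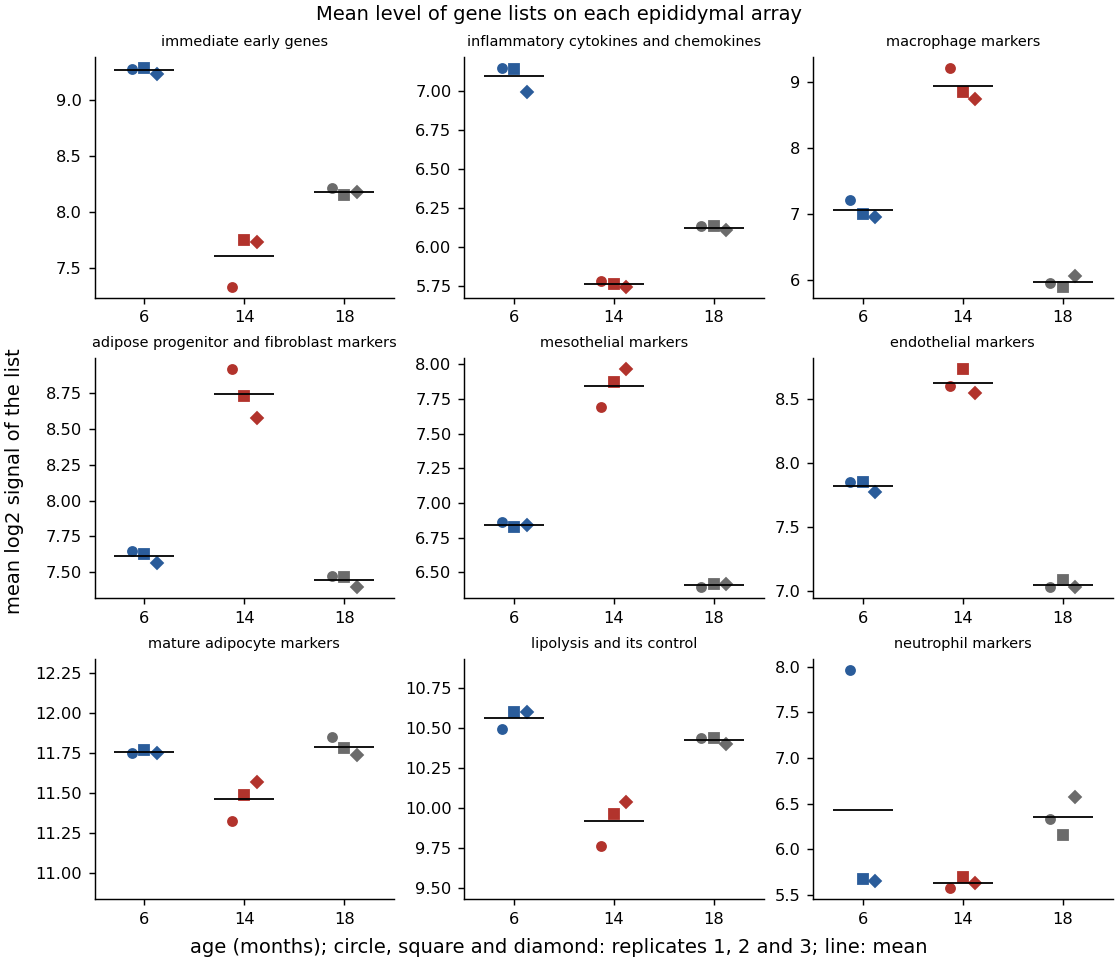
Mean log2 signal of 9 gene lists on each epididymal array by age in months, with circle, square and diamond for replicates 1, 2 and 3 and a line at the mean of each age. Macrophage, progenitor, mesothelial and endothelial lists are highest at 14 months, immediate early and cytokine lists are lowest there, and the neutrophil list is high on replicate 1 of 6 months (7.97) alone among the 6- and 14-month arrays.

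The remaining groups ranged from no calls to many, where 10.2% of all probe sets were called higher and 7.51% lower. Among the shares above these were 40% higher for interferon-stimulated genes, 21.6% higher for ribosomal proteins and 38.5% lower for erythroid genes. Of 16 brown and beige adipocyte genes 0 were called in either direction (2 higher without 14-month replicate 2), of 36 cell cycle genes 1 was higher (Ccnd1, up by 1.31 ± 0.20) and 1 lower (Pcna, by 0.68), and of 15 skeletal muscle genes 1 rose and 1 fell. Without 6-month replicate 1 there were 4 cell cycle genes higher. Markers of the epididymis and testis, which lie beside this fat pad, had means of 3.98 to 4.46 on the 6 arrays, with 0 of 22 called, or 3 lower without 6-month replicate 1. Neutrophil genes numbered 4 lower and 1 higher of 26. The list's median was -0.64 with 6-month replicate 1 and -0.07 without it, when 3 were lower and 3 higher, and Lcn2, an iron-scavenging protein of neutrophils, turned from -0.54 to a rise of 0.63 (adjusted p = 0.00555). Without 6-month replicate 2 or 3 the list had 9 or 10 lower, and without any one 14-month array 1 lower. Of 13 erythroid genes 5 were lower and 0 higher, and 2 were lower without 6-month replicate 1, 14-month replicate 1 or 14-month replicate 3. Among ribosomal proteins 11 of 51 genes passed as higher and 0 as lower, with a median of 0.31, and the first count was 3 or 4 without 6-month replicate 2 or 3 or 14-month replicate 1 or 2. Interferon-stimulated genes numbered 10 higher and 2 lower of 25 as deposited and 3 and 3 when arrays were centred on the ribosomal protein genes, with the antiviral Oas2 up by 1.52 and Cxcl10 and Irf1 the genes that fell. Genes of cholesterol synthesis numbered 1 higher and 2 lower of 17, or 1 lower without 6-month replicate 1, and cyclin-dependent kinase inhibitors and senescence genes 2 higher and 3 lower of 14. Secreted factors had no common direction, with 10 higher and 8 lower of 38. Angptl4, which inhibits lipoprotein lipase, fell by 1.42 ± 0.23, and Retnla, a product of alternatively activated macrophages, rose by 1.56 ± 0.21.

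Some genes among the 15 largest falls belong to none of the groups above. Fabp9, a fatty acid binding protein known from the testis, read 9.10, 9.57 and 10.04 against 3.57, 3.75 and 3.996, a fall of 5.80 ± 0.18 (55.6-fold; adjusted p = 5.61e-13). Lsmem1, a small membrane protein, read 10.50, 10.75 and 11.11 against 5.55, 5.84 and 6.09, a fall of 4.96 ± 0.28. Eid3, a relative of inhibitors of differentiation, fell by 4.58 ± 0.34 and Fam110c by 3.58 ± 0.13. Among the largest rises outside the lists, Tmem100, a membrane protein of vessels and nerves, rose by 3.07 ± 0.22, Pamr1 by 2.91 ± 0.14, Wfdc17 by 2.89 ± 0.40, Lsp1, an actin-binding protein of leukocytes, by 3.05 ± 0.24 and Ms4a6b by 2.85 ± 0.20.

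At 18 months the levels lay elsewhere again, and they are given side by side because both changes share the 6-month arrays. Ptx3 read 9.18, 9.25 and 9.17 at 18 months, Il6 6.09, 5.61 and 5.51, and Cxcl10 10.67, 10.56 and 10.68, in each case between the 6-month and the 14-month arrays. Ccl3 (6.43 to 6.48) and Egr2 (7.12 to 7.19) lay within the range of the 14-month arrays. Among genes that were higher at 14 months, Jchain read 4.72 to 5.22, C7 8.23 to 8.47, Pdgfra 6.67 to 6.90 and Adgre1 5.64 to 5.82 at 18 months, where Adgre1 and Pdgfra lay below all 6-month arrays. Pamr1 read 6.33, 5.95 and 6.06 at 18 months, above all 6-month arrays. The mean of the macrophage list was 5.90 to 6.07 at 18 months, and that of the endothelial list 7.03 to 7.08. Neutrophil genes were at 6.15 to 6.58.

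The largest changes differed from those in bone marrow adipocytes of the same mice. For the 15 largest rises and the 15 largest falls, the change in epididymal adipocytes was set against the change in marrow adipocytes between the same ages as an interaction in the same fit. All 30 differences passed at an adjusted p under 0.05, where 11.6% of all probe sets did, and all 30 passed with each epididymal array left out in turn. The genes were picked for a large change in epididymal cells, so a difference from marrow was favoured by the choice. In marrow cells the differences were 0.14 for Ptx3, 0.13 for Fosb, 0.02 for C7 and 0.23 for Cd209f, none of which passed the test. In marrow cells Cxcl10 moved the other way, by 1.31 (adjusted p = 0.00023), as did Pamr1, by -0.57 (adjusted p = 0.0142). Il6 moved the same way in both cell types, with -1.15 in marrow (adjusted p = 0.0187), as did Ms4a6b, with 1.01 (adjusted p = 0.003).

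**Figure D5:**
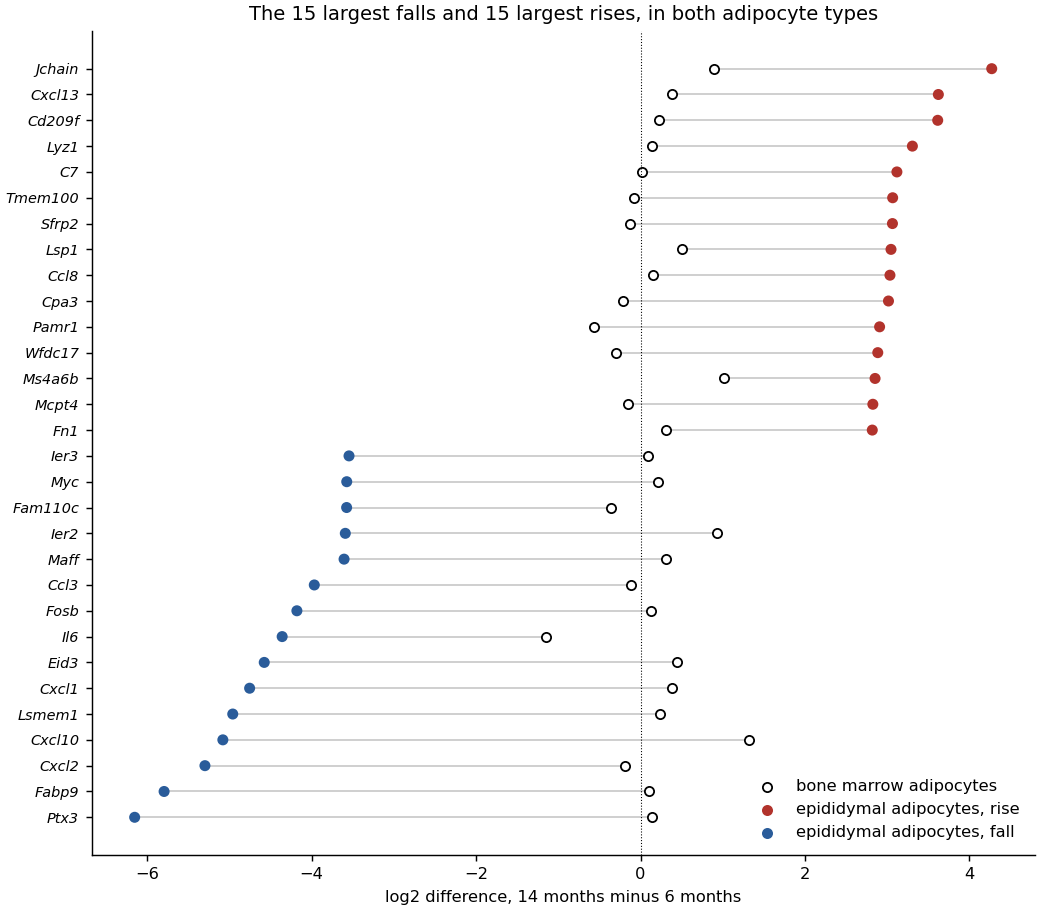
Log2 difference, 14 months minus 6 months, of the 15 largest falls and 15 largest rises in epididymal adipocytes (filled) and in bone marrow adipocytes of the same mice (open). The epididymal changes run from -6.15 (Ptx3) to 4.27 (Jchain), and the open circles lie nearer to 0 than the filled ones for every gene.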

How the data were processed

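RNA of 18 samples was hybridised to Affymetrix mouse gene arrays, 3 samples for each of 3 ages and 2 cell types, and 6 of them were compared here. The authors deposited log2 expression values, made per the labels with GCRMA background correction and quantile normalization in Partek. Array depth has no read count, so the number of arrays limits the precision, and p-values measure the spread between pooled preparations of both cell types. Of 35556 probe sets, 23410 name a gene through the platform's annotation, with symbols updated by gene identifier in a RefSeq table: 21789 name 1 gene, 1621 several and 12146 none. Each of 19938 genes was described by its single-gene probe set with the highest mean. A linear model with 6 group means over the 18 arrays was fitted in limma 3.58.1 (R 4.3.3) and tested with Benjamini-Hochberg adjustment over the 23410 probe sets. The fit was tested on simulated data. Genes were named as the 15 largest rises and 15 largest falls among called genes whose groups did not overlap, as key members of 40 gene lists whatever their result, as up to 6 further called members of a list by size of change, and as genes of these pathways that the study names. The comparison and lists were chosen with earlier results of these data known. Alternatives were other scalings, filters, thresholds and sets of arrays, array weights, a replicate block and each array left out. Motifs were searched on both strands in the 250 bases before RefSeq starts.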

Additional observations from a re-analysis of the deposited data

Results flagged for a closer look

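The change between 6 and 14 months differed between epididymal and bone marrow adipocytes, by a test of the difference itself, in each of the 15 largest epididymal falls and 15 largest rises. The values below are the epididymal log2 change minus the marrow log2 change. Among secreted inflammatory mediators the difference was Ptx3 -6.29, Cxcl2 -5.11, Cxcl10 -6.40, Cxcl1 -5.13, Il6 -3.21 and Ccl3 -3.85. For the immediate early genes and their relatives it was Fosb -4.31, Maff -3.91, Ier2 -4.52, Myc -3.79 and Ier3 -3.63. The other falls gave Fabp9 -5.90, Lsmem1 -5.20, Eid3 -5.02 and Fam110c -3.21. Rises of macrophage and other leukocyte genes gave Cd209f 3.39, Lyz1 3.16, Ccl8 2.88, Wfdc17 3.18, Ms4a6b 1.84 and Lsp1 2.54. For B cell and mast cell genes it was Jchain 3.38, Cpa3 3.23 and Mcpt4 2.98, and for Cxcl13, the chemokine that draws B cells, 3.24. For stromal, complement and vessel genes it was C7 3.10, Sfrp2 3.19, Pamr1 3.48, Tmem100 3.15 and Fn1 2.51. All 30 differences also passed with arrays centred on their median or on the ribosomal protein genes. The genes were picked for a large epididymal change, which favours a difference from marrow.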

How the results depend on the processing

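The counts as deposited were 2392 higher and 1758 lower. The lower count was 3526 with arrays centred on their median, and the counts were 1170 higher and 5448 lower with arrays centred on the ribosomal protein genes. At an adjusted p under 0.01 there were 994 lower, and with a fold of 2 there were 775 higher and 300 lower. Leaving out 1 array gave 1748 to 2289 higher and 1193 to 1552 lower. No called probe set turned direction in these alternatives. Replicate numbers were not used to pair samples in the main fit, and marrow and epididymal arrays of the same mice were fitted as independent. The correlations of deviations between epididymal arrays of the same number were 0.149, 0.012 and 0.0988. Without a reference value these cannot tell whether the numbers mark a pairing. A replicate block gave 2391 higher and 1726 lower over 18 arrays and 2535 and 1835 over the 6. Of 525 genes the naming rule covers, 371 were called, and 267 of these kept their call in every refit of the same probe set. With the 6 arrays fitted alone, Cdh5, Kdr, Cebpa, Cfb, C4b and Nfkb2 also passed.

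Some results turned direction, and the cause was not tested. Lcn2 ranged from -1.18 to 0.63 with 1 array left out, and another probe set of Cdkn1b, a cell cycle inhibitor that rose by 0.65, was at -0.46. Centred on the ribosomal protein genes, list medians were -0.0653 for lipid-associated macrophage genes, -0.0373 for matrix genes, -0.201 for matrix proteases, -0.152 for brown fat genes and -0.182 for unfolded protein genes. Centred on the array median, the last 3 were -0.0602, -0.0113 and -0.041. With 1 array left out, the medians ranged from -0.216 to 0.151 for cell cycle, from -0.0852 to 0.0898 for cyclin-dependent kinase inhibitors, from -0.121 to 0.0125 for cholesterol and from -0.0709 to 0.0391 for secreted factors, each highest without 6-month replicate 1. The kinase inhibitor median was 0.0648 over probe sets with a mean of at least 6, a filter that left no epididymis or testis gene. The median of secreted factors was 0.0102 after a repeated quantile normalization, and that of adipogenic regulators 0.00626 with array weights. Signals near background limit the dimmest genes, such as the epididymis and testis list.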

Other observations

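Some large changes lay side by side in the genome. With 18562 genes placed in RefSeq order, 19 neighbouring pairs both fell by 2-fold or more and 56 pairs both rose so, involving 38 of 256 and 100 of 639 such genes. The number of such pairs that a random gene order would give was not tested. Lsmem1 fell by 4.96 beside Ifrd1, an interferon-related developmental regulator, which fell by 2.74. Fabp9 fell by 5.80 beside Pmp2, a fatty acid binding protein of myelin, which fell by 3.35, while Fabp4 in the same cluster differed by -0.30 and did not pass the test. Eid3 fell by 4.58 beside Txnrd1, which fell by 1.53. Other neighbours that fell were Slc7a11, the cystine transporter, by 1.28 and Noct, a clock-regulated phosphatase, by 2.36, and the cell death inhibitors Birc2 and Birc3 by 1.38 and 1.03. Among rises, the lectins Mgl2 and Clec10a of alternatively activated macrophages went up by 1.92 and 2.45. Neighbouring genes can share probes or transcripts that run on, and the part of either was not tested.

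A few genes had probe sets that disagreed. Socs3, which fell by 3.14, had a second probe set at -0.96. Irf1, an interferon-induced factor, fell by 2.76 on the probe set described and differed by -0.03 on another (adjusted p = 0.94), and Pdia4, a chaperone of disulphide formation, differed by 0.08 on the one described and rose by 1.29 on another.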
